A study of Mus musculus with 6 samples.

Results

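Postsynaptic scaffold and adhesion genes were followed in the hippocampus of wild-type mice and of knockout mice without Ppp1r1a, the gene for inhibitor-1, which blocks protein phosphatase 1. A list of 33 genes was taken by name, and every probe set that the platform annotation assigns to exactly 1 of them was taken. That gave 83 of the 45101 probe sets of the array, for 31 genes. Shank2 and Lrrc7 had no such probe set and were not analysed here. Each of 6 samples of hippocampal RNA, 3 from wild-type mice and 3 from knockouts, was hybridised to its own one-colour Affymetrix array. The labels give genotype, tissue and a replicate number. They do not give strain, sex, age, how the gene was disrupted, or whether each array is a separate animal, so the p-values reflect only how far these samples spread, and that spread may be technical.

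Excitatory synapses on spines are built around a protein lattice, the postsynaptic density. Membrane-associated guanylate kinases of the Dlg family (MAGUKs) hold receptors and adhesion molecules at the membrane, Dlgap proteins (SAPAPs) link them to Shank proteins, and Homer proteins cross-link Shank with metabotropic glutamate receptors and internal calcium stores. Neuroligins and Lrrtm proteins reach across the cleft to presynaptic neurexins, and gephyrin is the main scaffold of inhibitory synapses. Phosphorylation governs much of this lattice. Protein phosphatase 1 is held in spines close to it, and inhibitor-1 restrains that phosphatase once protein kinase A has phosphorylated inhibitor-1.

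Values are given as log2(intensity + 16), and a log2 change is the knockout mean minus the wild-type mean on that scale. The dimmest 40% of probe sets by mean were left out, which kept 78 of the 83 member probe sets and 30 genes. The leading probe set of a gene is its brightest tested one. Shank1, a master scaffold of the density, had 1 probe set, below that limit at a mean log2 value of 8.35, so it was not tested. The 4 other untested probe sets, of Dlg1, Nlgn1, Pick1 and Iqsec2, had mean log2 values of 6.28 to 8.12, and each of these genes had a brighter probe set.

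No member probe set passed the threshold of a limma adjusted p under 0.05: 0 of 78, with a lowest adjusted p of 0.988, against 0.0111% of all 26999 tested probe sets. At an unadjusted p under 0.05 there were 4 of the 78 (5.13%), beside a background of 4.38%. Of these 3 were higher, where 2.17% of all tested probe sets were, and 1 was lower. Among the 9000 brightest tested probe sets were 40 of members. Of those 40, 2 were at an unadjusted p under 0.05, against 6.1% of the 9000. The knockout arrays were all above or all below the wild-type arrays for 11 of 78 (14.1%), 4 higher and 7 lower, where 9.89% of all tested probe sets did so. The share at an unadjusted p under 0.05 is thus near its background. The count of 4 was 11 without knockout replicate 1, 0 without knockout replicate 2 and 2 without wild type replicate 3; over all probe sets the background shares were then 10.8%, 3.27% and 3.74%.

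Intervals were narrow for most leading probe sets, and each bounds the signal of that probe set only. For 26 of 30 members the 95% interval of the log2 change lay inside ±0.5, that is between 0.707-fold and 1.41-fold, and for 10 of 30 it lay inside ±0.25. The members whose leading interval reached beyond 0.5 were Homer3, Nlgn3, Grip1 and Agap2. Most members were bright, with 23 of the 30 leading probe sets among the 9000 brightest. Their median standard error was 0.0962, against 0.159 for the other member probe sets and 0.177 for all tested probe sets.

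**Figure D1:**
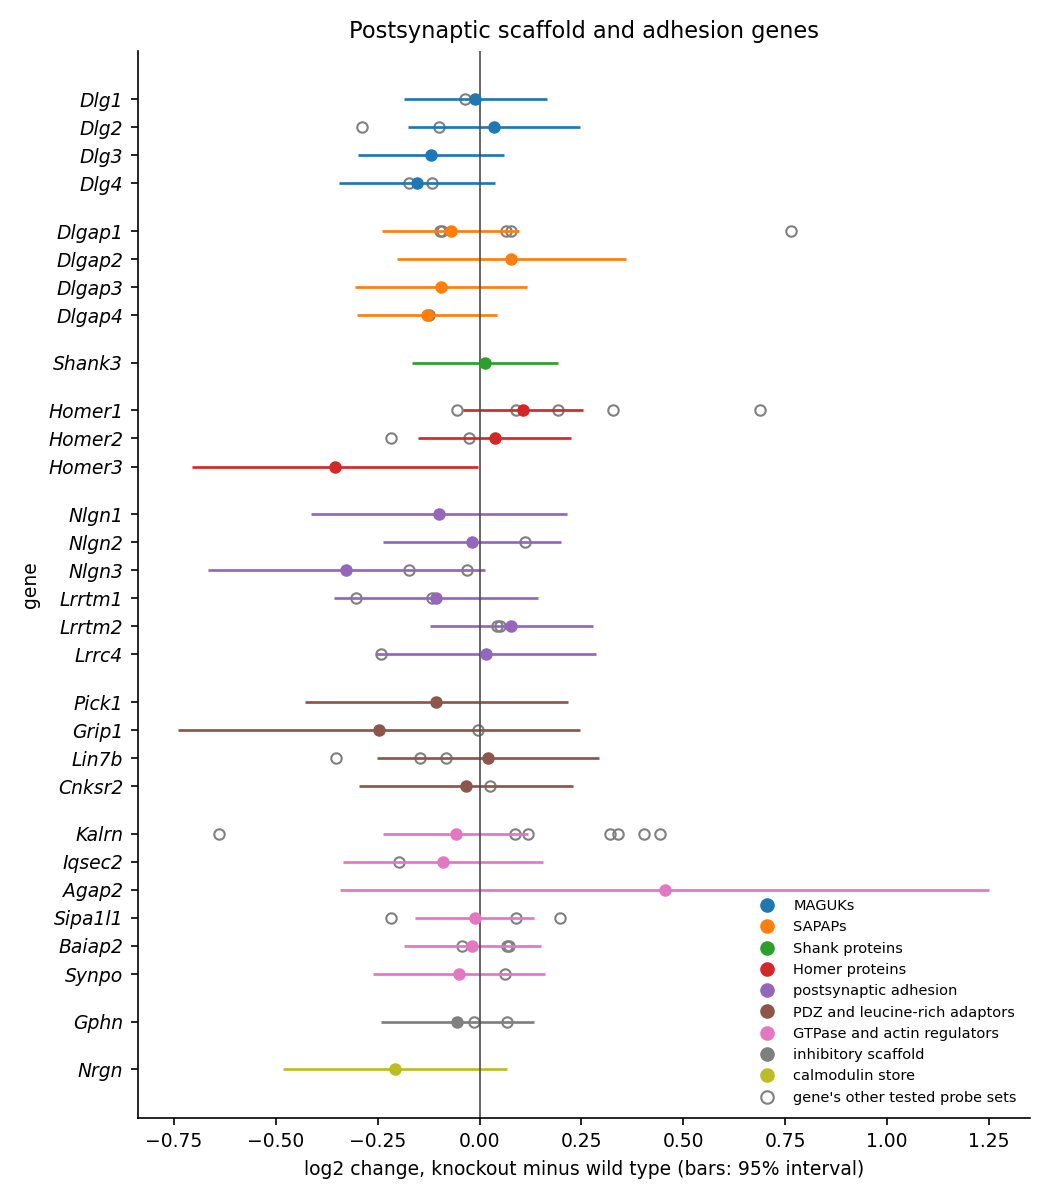
Log2 change (knockout minus wild type, horizontal axis) of the 30 tested members by role. Filled points are leading probe sets with their 95% interval, and open circles are the gene's other tested probe sets. Of the 30 filled points 21 lie below 0, and the interval of Homer3 alone does not include 0.

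Of the 30 leading probe sets, 21 (70.0%) had a change below 0 and 9 above it, with a median log2 change of -0.05 and a range of -0.35 to 0.45. Among all 12493 genes represented in the same way 49.9% had a change below 0, with a median of 0.0003. Among the genes whose leading probe set was among the 9000 brightest the share was 51.8% and the median -0.005. Over all 78 tested member probe sets the lean was weaker, with 46 below 0 and a median of -0.03, beside a median of 0.004 over all tested probe sets. Averaging a gene's probe sets gave 19 of 30 members below 0 and a median of -0.08, where 50.7% of all genes were below 0. The mean of the 30 leading probe sets, relative to the wild-type mean, was 0.02, -0.03 and 0.01 in wild type and 0.03, -0.07 and -0.11 in knockout. Knockout replicate 1 was the highest of the 6 arrays and the other knockout arrays were the lowest, so the groups overlapped. Markers of neurons in general had 8 of 9 changes below 0 and a median of -0.07, while markers of hippocampal principal neurons had 4 of 10 below 0 and a median of 0.02. The summed intensities of the general neuron markers, 500379 to 516335 on wild-type arrays, spanned 469996 to 519178 on knockout arrays. Those of the principal neuron markers were 98227 to 106384 on wild-type arrays and 99271 to 105387 on knockout arrays. In bulk tissue, fewer cells of a type and less RNA per cell cannot be told apart. Choroid plexus and ependymal markers had 9 of 10 changes above 0 (median 0.59). Their summed intensity was 200824 to 284438 on wild-type arrays against 224654 to 273763 on knockout arrays. Most of that sum came from Ttr, whose log2 values were 17.47 to 17.89 and whose change was -0.02. The 9 others lay at log2 values of 13.94 or below, so the sum says little about them. Their mean log2 level ran from 11.37 to 12.34 in wild type and up to 12.84 in knockout, and the groups overlapped. Markers of meninges and fibroblasts had 9 of 9 changes above 0 (median 0.41), with summed intensities of 38376 to 51600 on wild-type arrays against 46527 to 66930 on knockout arrays. Oligodendrocyte markers had 6 of 9 below 0 (median -0.12), with sums of 337644 to 364169 and 314447 to 329759. None of these markers was at 0. At an unadjusted p under 0.05 in limma, 3 choroid plexus and 3 meningeal or fibroblast markers were higher. Lower at that level were 2 oligodendrocyte markers, 1 principal neuron marker and 1 endothelial or mural marker. Of all genes 4.75% were at that level in either direction. With the choroid plexus level as a covariate the members' median was -0.02. Then 16 of 30 members were below 0, where 50.2% of all genes were. In that limma fit 6 of the 78 member probe sets were at an unadjusted p under 0.05, where 6.1% of all tested probe sets were. The choroid plexus markers were themselves mostly higher in knockout (9 of 10), so that fit cannot fully separate their level from genotype. The part of any marker list in the members' changes was not tested.

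The MAGUKs Dlg1 (SAP97), Dlg2 (PSD-93), Dlg3 (SAP102) and Dlg4 (PSD-95) had 9 tested probe sets, 8 of them with a change below 0, over a range of -0.29 to 0.03. Dlg4, a major scaffold protein of the density and the anchor of NMDA receptors, had 2 bright probe sets. At 1419581_at its log2 values were 14.68, 14.40 and 14.55 in wild type and 14.51, 14.37 and 14.29 in knockout. The groups overlapped, since knockout replicate 1 exceeded wild type replicate 2. The log2 change was -0.15 (SE 0.09, 95% interval -0.35 to 0.04, limma adjusted p = 0.988). It was -0.05 after adding the choroid plexus covariate, -0.09 without wild type replicate 1 and -0.10 without replicate 3 of both groups. Without replicate 1 of both groups it was -0.15, with array weights -0.16 and with median centring -0.18. At 1419580_at the values were 14.66, 14.37 and 14.39 in wild type and 14.33, 14.31 and 14.26 in knockout. Here all knockout values were the lower ones, with wild type replicate 1 well above the other arrays. The change was -0.17 (SE 0.09, 95% interval -0.36 to 0.01). A dim probe set, 1460261_at, had -0.12. Dlg3, which serves receptors mainly in young neurons, had log2 values of 13.72, 13.64 and 13.65 in wild type and 13.60, 13.63 and 13.42 in knockout. These did not overlap either, although knockout replicate 2 and wild type replicate 2 almost touched, and the change was -0.12 (SE 0.08). The leading probe sets of Dlg1 (-0.01) and Dlg2 (0.03) were closest to 0.

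The SAPAPs, which bind the guanylate kinase domain of MAGUKs, had 10 tested probe sets, 6 with a change below 0. Dlgap4 had the lowest p of the leading probe sets in this family. Its values were 13.28, 13.21 and 13.33 in wild type and 13.18, 13.12 and 13.13 in knockout, without overlap, and its log2 change was -0.13 (SE 0.08, limma adjusted p = 0.988). Its second probe set, 1426465_at, had -0.12. Dlgap1, Dlgap2 and Dlgap3 had changes of -0.07, 0.08 and -0.10 at their leading probe sets. One dim probe set of Dlgap1, 1443508_at, was among the 4 at an unadjusted p under 0.05. Its log2 values were 8.78, 9.85 and 9.19 in wild type and 9.50, 10.30 and 10.30 in knockout. Wild type replicate 2 lay above knockout replicate 1. The change was 0.76 (SE 0.33, limma adjusted p = 0.988), while the 5 other probe sets of Dlgap1 ranged from -0.10 to 0.08. It was 0.34 after adding the choroid plexus covariate and 0.80 with array weights.

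Shank3, which joins the Dlgap layer to Homer and to actin, had 1 probe set with log2 values of 13.44, 13.39 and 13.51 in wild type and 13.37, 13.56 and 13.45 in knockout. The groups overlapped throughout, with a log2 change of 0.01 (95% interval -0.16 to 0.19). Shank3 and Pick1 lie on chromosome 15, which also carries Ppp1r1a, at 124 and 241 measured genes from it of 490 on that chromosome.

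Homer1 is transcribed both into long forms, which carry a coiled coil and cross-link the lattice, and into the short Homer1a, which neuronal activity induces and which uncouples it. Its promoter is shown because cAMP response elements, bound by the protein kinase A target CREB, are a known route from activity to transcription. The core TGACG was searched on both strands in RefSeq promoter windows of GRCm38.p6 (250 bases before to 50 after a gene start). The full element TGACGTCA contains this core on both strands. Of the 33 members, 27 had a window, and 8 of these (29.6%) held TGACG: Cnksr2, Dlg3, Dlg4, Dlgap4, Grip1, Homer1, Nlgn2 and Pick1. That compares with 23.0% of 27025 genes. Counted by window, 9 of the 45 member windows held TGACG, a share slightly below the 20.8% of all 32851 windows. A gene can have several windows, so the share by gene also depends on their number. The full element was in 0 of the 45 member windows and in 1.79% of all 32851 windows. The first window of Homer1, chr13:93303507-93303806 on the plus strand, held 3 copies, as many as in any member, where 1.03% of all windows held 3 or more. A window of Dlg4, chr11:70023732-70024031 on the plus strand, held 1 and is printed for comparison. Capitals mark TGACG in both. A match is a description of the letters, not a site of binding.
Homer1: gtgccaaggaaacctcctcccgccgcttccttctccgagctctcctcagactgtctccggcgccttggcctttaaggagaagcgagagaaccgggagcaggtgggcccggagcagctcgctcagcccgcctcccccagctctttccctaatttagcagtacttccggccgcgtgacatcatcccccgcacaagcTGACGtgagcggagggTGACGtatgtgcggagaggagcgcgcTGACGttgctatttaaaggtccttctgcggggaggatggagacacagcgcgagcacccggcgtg
Dlg4: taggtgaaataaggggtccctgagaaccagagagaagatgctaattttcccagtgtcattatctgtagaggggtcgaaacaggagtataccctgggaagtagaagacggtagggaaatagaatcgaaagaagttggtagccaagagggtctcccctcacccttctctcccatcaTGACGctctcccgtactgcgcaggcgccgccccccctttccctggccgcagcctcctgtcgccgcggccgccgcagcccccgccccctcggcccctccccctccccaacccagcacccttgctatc

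Homer1 had 6 tested probe sets, 5 with a change above 0. The leading one, 1437363_at, had log2 values of 14.39, 14.29 and 14.32 in wild type and 14.40, 14.47 and 14.45 in knockout. The groups did not overlap, though wild type replicate 1 and knockout replicate 1 almost met, and the change was 0.11 (SE 0.07, 95% interval -0.04 to 0.25). The second brightest, 1439662_at, had a change of -0.06 (SE 0.08). The next in brightness, 1436387_at, varied far more. Its values were 12.05, 11.91 and 10.92 in wild type and 12.35, 12.80 and 11.79 in knockout, with replicate 3 the lowest array of each group and overlap between groups. The log2 change was 0.69 (SE 0.29, 95% interval 0.05 to 1.33, unadjusted p = 0.0376 and limma adjusted p = 0.988). Leaving out wild type replicate 3 gave 0.34, and leaving out knockout replicate 2 gave 0.44. Adding the choroid plexus covariate gave 0.86. Which Homer1 transcript each probe set reads was not analysed here.

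Many activity-regulated genes had their lowest values on replicate 3, as Homer1 1436387_at did. Fos, a transcription factor induced by neuronal firing, had log2 values of 13.27, 13.82 and 12.15 in wild type and 13.30, 13.22 and 11.85 in knockout. Arc, which acts at the density to remove AMPA receptors, had 13.22, 13.13 and 12.37 in wild type and 13.38, 13.15 and 11.83 in knockout. Replicate 3 was thus the lowest array of both groups in each, as at Homer1 1436387_at. Of 13 activity-regulated genes, a list chosen after these values were seen, 10 were lowest on replicate 3 in both groups, against 11.4% of all 12493 genes. Because of that choice the count is a description and not a test, and no label pairs the samples numbered 3. The highest arrays differed. Homer1 1436387_at peaked on wild type replicate 1 and knockout replicate 2, and Fos on wild type replicate 2 and knockout replicate 1. The median log2 change of the 13 genes between genotypes was -0.06, with 6 above 0 and 7 below. At an unadjusted p under 0.05 in limma 2 of the 13 were higher, where 4.75% of all genes were at that level in either direction. These were the transcription factors Nr4a2 (0.29, SE 0.10) and Egr3 (0.33, SE 0.14). Without replicate 3 of both groups, also chosen after the values were seen, the change of Homer1 1436387_at was 0.60. The part of these array differences in the Homer1 value was not tested.

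**Figure D2:**
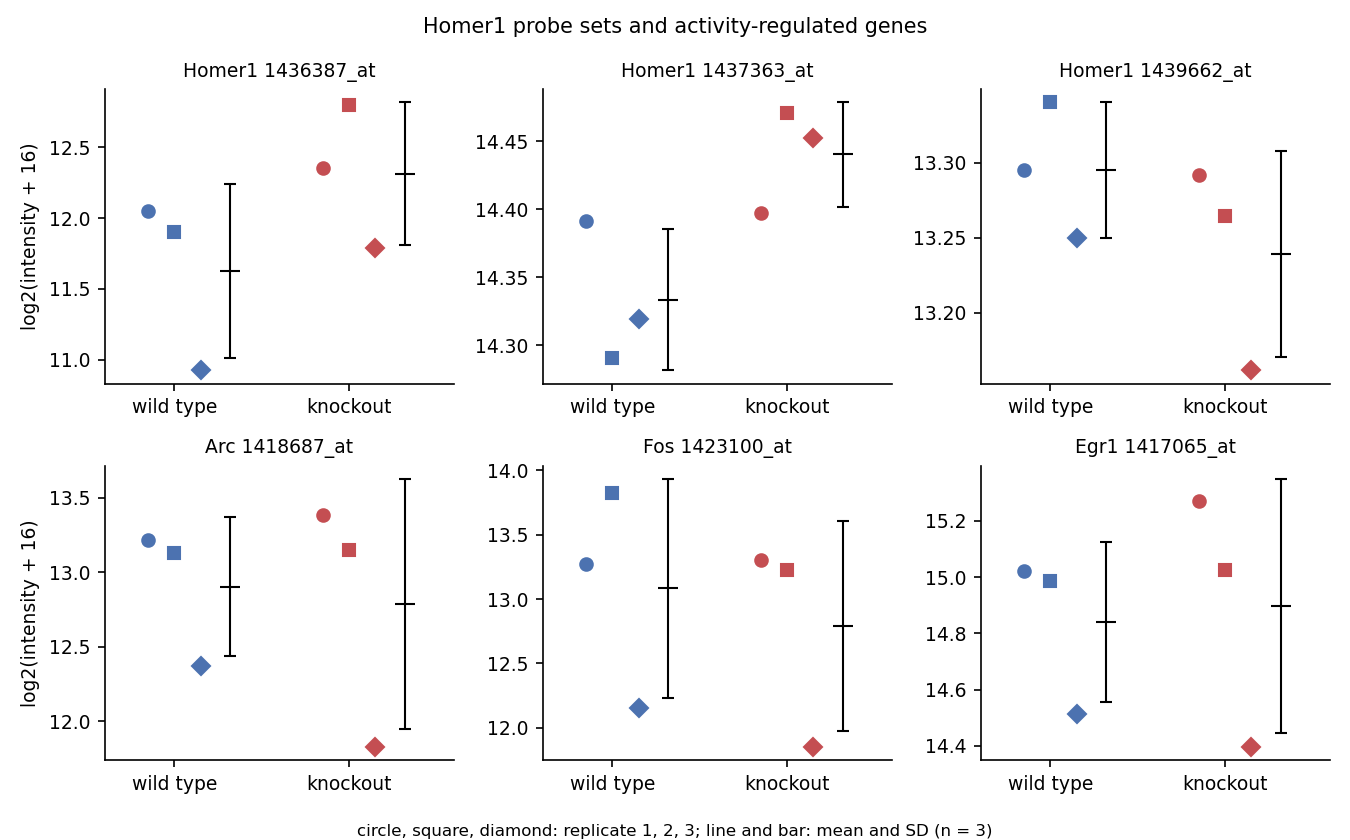
Log2(intensity + 16) of 3 Homer1 probe sets and of Arc, Fos and Egr1 on each array (circle, square and diamond for replicates 1, 2 and 3; line and bar for mean and SD, n = 3). Replicate 3 (diamond) is the lowest point of each group at Homer1 1436387_at, Arc, Fos and Egr1, and the axes do not start at 0.

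Homer3 and Homer2 are encoded by separate genes. Homer3, most prominent in cerebellar Purkinje cells, was the leading probe set with the lowest p among all members. Its log2 values were 11.02, 11.22 and 11.44 in wild type and 11.02, 10.85 and 10.75 in knockout. All knockout values were the lower ones, but wild type replicate 1 and knockout replicate 1 almost met. The change was -0.35 (SE 0.16, 95% interval -0.71 to -0.004, unadjusted p = 0.0477 and limma adjusted p = 0.988). It was -0.53 without replicate 1 of both groups, -0.19 without replicate 3 of both groups and -0.41 after adding the choroid plexus covariate. Homer2 had a leading change of 0.04 (SE 0.09) and its 2 other probe sets -0.03 and -0.22.

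Adhesion molecules had 14 tested probe sets, 9 with a change below 0, over a range of -0.33 to 0.11. Nlgn1, the neuroligin of excitatory synapses, had log2 values of 12.24, 11.95 and 12.39 in wild type and 12.35, 11.98 and 11.96 in knockout. These overlapped, with a change of -0.10 (SE 0.14). Nlgn2, its counterpart at inhibitory synapses, had 13.31, 13.29 and 13.48 in wild type and 13.52, 13.32 and 13.19 in knockout, and the highest and the lowest value were both in knockout. Its change was -0.02 (SE 0.10). Nlgn3, found at both kinds of synapse, had the lowest p of the adhesion genes. At 1453756_at its values were 11.29, 11.17 and 11.18 in wild type and 11.13, 10.72 and 10.80 in knockout, without overlap. The change was -0.33 (SE 0.15, unadjusted p = 0.0575, limma adjusted p = 0.988), and it was -0.20 after adding the choroid plexus covariate. Without replicate 1 of both groups it was -0.41, and with array weights -0.38. A probe set of nearly equal brightness, 1436135_at, had -0.03, and the dimmest of the 3 had -0.17. The 3 probe sets of Lrrtm1 ranged from -0.30 to -0.11 and those of Lrrtm2 from 0.04 to 0.08; both encode neurexin ligands. Lrrc4 (NGL-2), a netrin-G ligand, had 0.02 at its leading probe set and -0.24 (SE 0.11) at the other, where the groups did not overlap.

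Adaptors had 9 tested probe sets, 7 with a change below 0. Grip1, a multi-PDZ protein that carries AMPA receptors, had 10.15, 10.41 and 10.50 in wild type and 9.72, 10.33 and 10.27 in knockout. The groups overlapped and the change was -0.25 (SE 0.22). It was -0.05 without knockout replicate 1 and -0.49 after adding the choroid plexus covariate. Pick1, which takes AMPA receptors inward, had a change of -0.11 (SE 0.15). Lin7b, part of a complex with Cask, had 0.02 (SE 0.12) at its leading probe set and -0.15, -0.08 and -0.35 at its others, and averaging its probe sets gave -0.14. Cnksr2, a scaffold that binds MAGUKs, had -0.03 at its leading probe set and 0.02 at the other.

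The regulators of small GTPases and actin had 21 tested probe sets, 9 with a change below 0. Kalrn, an exchange factor for Rac that enlarges spines, had 8 of them and the lowest p of all member probe sets. Its brightest, 1436066_at, had log2 values of 15.33, 15.35 and 15.28 in wild type and 15.44, 15.19 and 15.16 in knockout. Knockout replicate 1 was the highest array and the other knockout arrays the lowest, and the change was -0.06 (SE 0.08). At 1448023_at the values were 12.15, 12.32 and 11.87 in wild type and 12.33, 12.70 and 12.52 in knockout. All knockout values were the higher ones, knockout replicate 1 by a small margin. The change was 0.40 (SE 0.14, 95% interval 0.11 to 0.70, unadjusted p = 0.0122, limma adjusted p = 0.988). It was 0.28 without wild type replicate 3, 0.35 after adding the choroid plexus covariate and 0.52 without replicate 1 of both groups. The groups also did not overlap at 1429796_at (0.32, SE 0.16) and 1457899_at (0.44, SE 0.24). In all, 6 of the 8 probe sets of Kalrn had a change above 0. The lowest, 1442341_at at -0.64 (SE 0.53), had 7.39 on knockout replicate 1 and 9.41 to 9.82 on the other arrays. Kalrn makes several long and short protein forms, and which of them these probe sets read was not analysed here.

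Agap2 (PIKE), a GTPase that activates PI3 kinase and binds Homer, had 1 dim probe set with 8.87, 8.79 and 8.36 in wild type and 9.64, 9.09 and 8.64 in knockout. The groups overlapped and the change of 0.45 had an SE of 0.36. It was 0.72 after adding the choroid plexus covariate and 0.19 without knockout replicate 1. Sipa1l1 (SPAR), a Rap regulator, had -0.01 at its leading probe set. At 1434222_at it had a change of -0.22 (SE 0.10), without overlap. Baiap2 (IRSp53) had -0.02, Synpo, the spine apparatus protein synaptopodin, -0.05, and Iqsec2, an Arf exchange factor, -0.09 at their leading probe sets.

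Gphn, the gephyrin gene, had log2 values of 13.00, 13.09 and 12.96 in wild type and 13.06, 12.91 and 12.93 in knockout at its leading probe set. These overlapped, and the change was -0.05 (95% interval -0.24 to 0.13). Its other probe sets had -0.01 and 0.07. Nrgn, neurogranin, binds calmodulin in dendrites when calcium is low. It had 15.95, 15.68 and 15.98 in wild type and 15.96, 15.62 and 15.41 in knockout. Knockout replicate 1 was level with the higher wild-type arrays, and the change was -0.21 (SE 0.13, 95% interval -0.48 to 0.07, limma adjusted p = 0.988). It was -0.03 without replicate 3 of both groups, -0.32 without replicate 1 of both groups and -0.07 after adding the choroid plexus covariate. Leaving out single arrays gave -0.36 without knockout replicate 1 and -0.08 without knockout replicate 3.

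**Figure D3:**
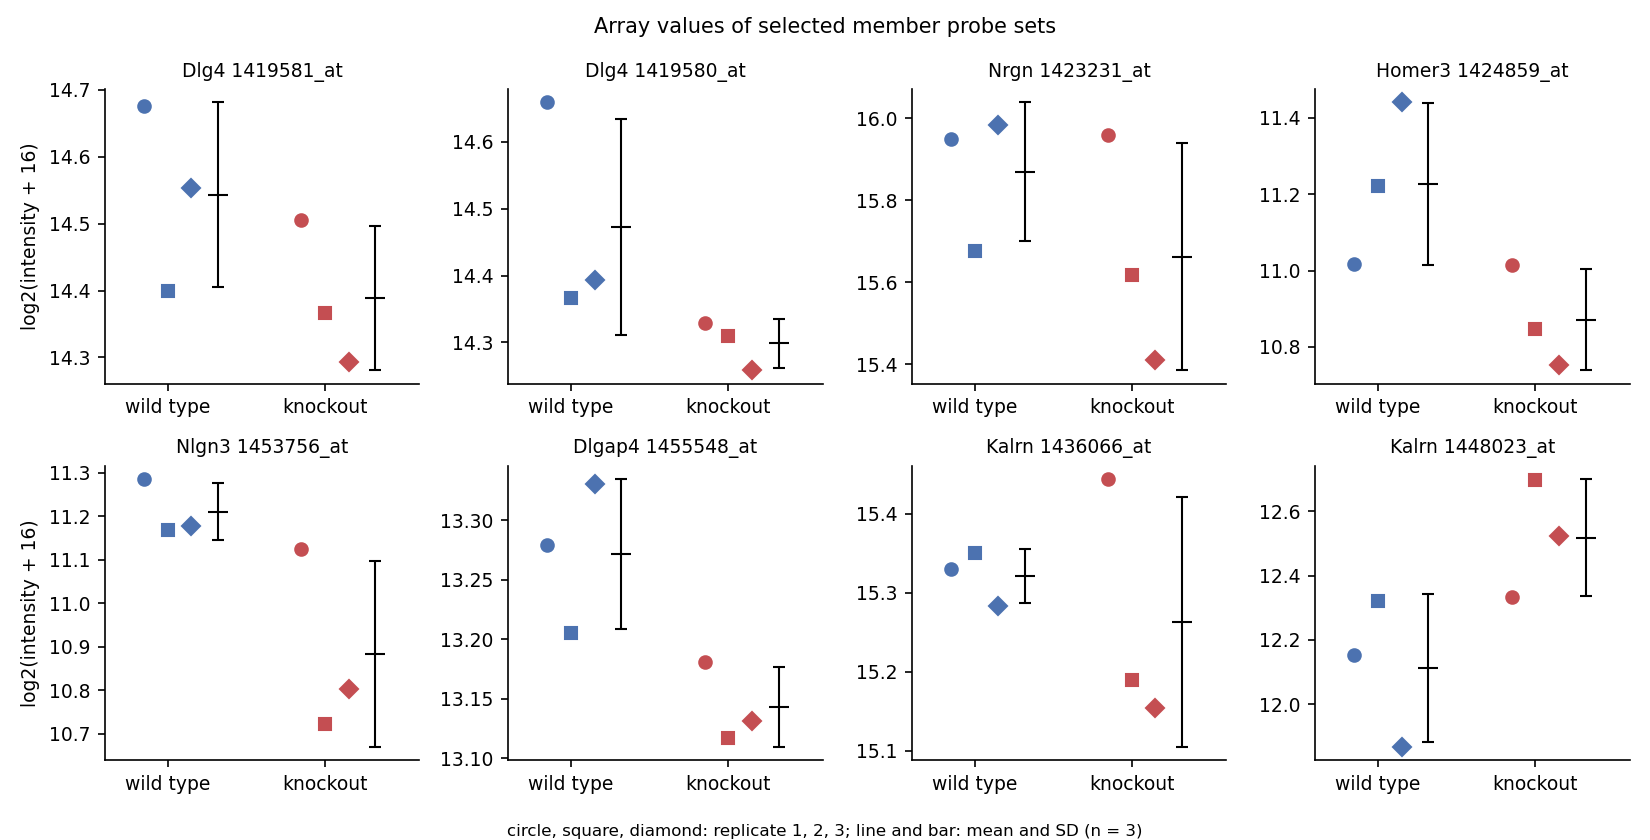
Log2(intensity + 16) of 8 member probe sets on each array (circle, square and diamond for replicates 1, 2 and 3; line and bar for mean and SD, n = 3). The groups do not overlap at Dlg4 1419580_at, Homer3, Nlgn3, Dlgap4 and Kalrn 1448023_at, and they overlap in the other panels; the axes do not start at 0.

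Probe sets of 1 gene did not always have the same sign. Of the 21 members with 2 or more tested probe sets, 8 had changes of one sign. These were below 0 for Dlg1, Dlg4, Dlgap4, Grip1, Iqsec2, Lrrtm1 and Nlgn3 and above 0 for Lrrtm2. Among the 40 member probe sets within the 9000 brightest, which start at a log2 level of 11.9, the only changes beyond ±0.25 were those of Homer1 1436387_at and Kalrn 1448023_at. All other changes of that size were at dimmer probe sets.

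**Figure D4:**
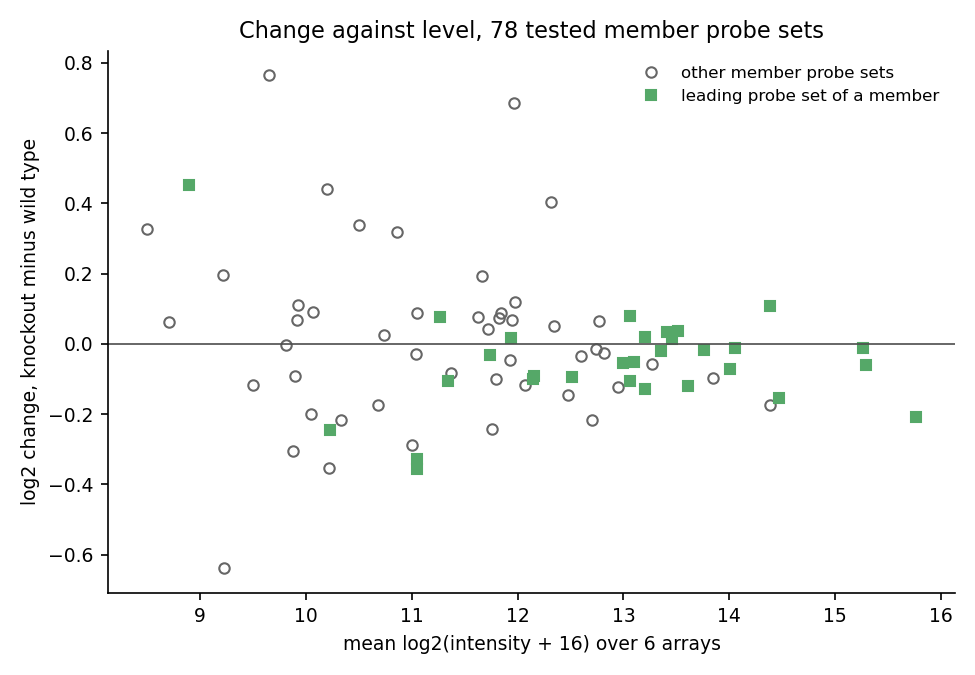
Log2 change (knockout minus wild type, vertical axis) of the 78 tested member probe sets against their mean log2(intensity + 16) over the 6 arrays. Filled squares are leading probe sets and open circles the others; the spread narrows as the level rises.

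Other genes of the same synapses were read at their leading probe sets, where 4.75% of all genes had an unadjusted p under 0.05. None of the 4 lists below had a gene past the adjusted threshold in limma. Changes below 0 are set beside the 49.9% of all genes. Of 22 tested genes for other scaffolds and enzymes of the density, 1 was higher and 2 were lower at an unadjusted p under 0.05, and 9 had a change below 0 (list median 0.02). The lowest p belonged to Sorbs2 (log2 change 0.25, SE 0.08) and Sipa1l3 (-0.32, SE 0.12), a relative of Sipa1l1. Of 23 spine actin genes, 0 were at that level (limma), and 10 had a change below 0 (median 0.01). Among them Ppp1r9a, the protein phosphatase 1 targeting subunit neurabin, had 0.11 (SE 0.07) and Limk1, a cofilin kinase, -0.23 (SE 0.13). Of 39 trans-synaptic adhesion partners, 1 was higher and 1 lower, and 15 had a change below 0 (median 0.03). Ptprd, a presynaptic receptor phosphatase, had 0.19 (SE 0.07) and Cadm3 -0.23 (SE 0.10). Of 12 inhibitory postsynaptic genes, 0 were at that level (limma), and 10 had a change below 0 (median -0.05), with Dtna at 0.25 (SE 0.15) and Slitrk3 at -0.18 (SE 0.15). Across all genes the median was 0.0003.

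The signal of Ppp1r1a itself was 9259 ± 1002 on wild-type arrays and 289.4 ± 51.5 on knockout arrays (SD, n = 3 each). Its log2 change was -4.93 with limma (adjusted p = 3.58e-07), in the direction of the labels. Markers of hippocampal principal neurons were present on all arrays, with a lowest intensity of 1251 among their 10 genes.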

How the data were processed

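Each deposited value is an intensity of a probe set, not log-transformed. The arrays come scaled: their means, trimmed by 2% from each end, were 2500 in all 6 cases. The software used by the authors was not given in the sources used here. Genes were named from the platform annotation, with gene IDs looked up in RefSeq (GRCm38.p6), which changed 0 symbols. Values were taken as log2(intensity + 16), which understates changes at low signal. Left out were 64 control probe sets and the 40% with the lowest mean (below a log2 level of 8.44). The 26999 others were fitted with limma 3.58.1 in R 4.3.3 (group as the only term, intensity trend, two-sided) and adjusted by Benjamini-Hochberg over all of them; the script was tested on simulated data. The number of arrays limits the precision.

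The members, gene lists and tests were chosen with earlier results of these data known. Every member is named. Values of all arrays are given for member probe sets at an unadjusted p under 0.05, for the leading probe set of lowest p in each role group, and for Dlg4, Shank3, Homer1, Nlgn1, Nlgn2, Gphn and Nrgn; those of Dlg3, of Dlg4 1419580_at and of Kalrn 1436066_at were added after they were seen. Of the 4 lists of other synaptic genes the 2 genes of lowest p are named. Marker lists are given by counts and sums, and Ttr and Mbp are named as the brightest of their lists. Fos, Arc, Egr1, Nr4a2 and Egr3 were chosen after their values were seen. Of 216 list entries 198 had a probe set. Alternatives were other pseudocounts, filters, scalings, variance models and array weights, a replicate block, a choroid plexus covariate, other ways to represent a gene, and leaving out arrays.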

Additional observations from a re-analysis of the deposited data

How the results depend on the processing

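No member probe set was called in any of the 21 alternatives, the lowest limma adjusted p being 0.237 (Kalrn 1448023_at without knockout replicate 1), and none of 690 comparisons of single members changed side of the threshold. In 55 of them a member called in neither fit had the other sign. The median change ran from -0.10 to -0.02 and the number of members below 0 from 16, with the choroid plexus covariate, to 24, with median centring, which moved the share of all genes below 0 to 55.6%. The count at an unadjusted p under 0.05 was 1 of 30 genes when a gene's probe sets were averaged, 8 without replicate 1 of both groups (10.5% of all probe sets) and 0 to 11 leaving out 1 array. Leaving out replicate 3 of both groups was chosen after seeing the data. The cause of these changes was not tested. Ppp1r1a stayed called, at -5.06 to -4.12. No label pairs same-numbered samples, and their deviations from the group means correlated at 0.24, 0.05 and 0.10. The best match of wild type replicate 3 was knockout replicate 2 (0.11). With the replicate block 0 member probe sets were called and 3 were at an unadjusted p under 0.05, where 5.46% of all tested probe sets were. In that limma fit Homer1 1436387_at had an unadjusted p of 0.000314 and an adjusted p of 0.268. Over all probe sets the block gave 11 calls against 3. Low signal limits the dim probe sets: the 5 untested member probe sets had standard errors of 0.477 to 0.994 without a filter.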
